A study of Homo sapiens with 66 samples.

Results

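The loss of NUP153 for 2 h was measured across all genes in DLD-1 cells, a human colorectal adenocarcinoma line. The comparison uses 6 of the 66 RNA-seq libraries of the series, chosen by their labels: the 3 NUP153-NeonGreen-AID libraries labelled auxin for 2 h (replicates 1 to 3) and the 3 libraries of the same line labelled with no agent (replicates 1 to 3), all from cells whose NUP153 gene was tagged on both alleles with the green fluorescent protein NeonGreen and an auxin-inducible degron (AID). Both groups also carry TIR1, the plant receptor that hands AID-tagged proteins to the proteasome once auxin is added, inserted at the RCC1 locus. The treated cells received 1 mM auxin, so that in these 6 libraries auxin itself and the loss of NUP153 cannot be told apart. The untagged DLD-1 line with and without auxin (3 libraries each) served the study as the control for that. Of the 58051 genes in the files, 17812 passed the filter on low counts and were tested. Total RNA without ribosomal RNA was sequenced, so fewer cells and less RNA per cell cannot be told apart, and protein levels were not analysed here.

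NUP153 is a nucleoporin of the nuclear basket, the filamentous structure on the nucleoplasmic face of the nuclear pore, which it shares with TPR and NUP50. The basket is known as a docking place for transport receptors and for the TREX-2 mRNA export complex, and its proteins also contact chromatin. The comparison asks which RNAs change in abundance soon after NUP153 is degraded.

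The 6 libraries held between 37121619 and 42977362 counts each. Levels are given as CPM, counts scaled to a common library size. Within a group, log2 CPM of any 2 libraries correlated at 0.992 to 0.997 (Pearson's r across 12775 genes, which are not independent replicates). Replicate 3 stood apart in both groups: on the first principal component, with 53% of the variance, it lay at 17.8 (untreated) and 18.4 (auxin), against -11.2 to -5.69 for the other 4 libraries. The replicate number therefore entered a second fit as a block, called the paired fit here, beside an unpaired fit. The unpaired fit used no covariate. It used edgeR and a filter on CPM, where the study names DESeq2 and a filter on CPM and FPKM and states no covariates. Summed CPM of 10 measured markers of intestinal epithelium was 8732 to 10388 in untreated and 9050 to 10280 in auxin libraries, with CDX1 and LGALS4 too low to be tested. Fibroblast markers summed to at most 0.228 CPM (1 of 9 tested), leukocyte markers to at most 1.27 CPM (2 of 9 tested) and endothelial markers to at most 7.83 CPM (2 of 6 tested, nearly all VWF, at 4.29 to 6.9 CPM).

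The degron acts on protein and leaves the mRNA of the tagged gene in place. NUP153 mRNA was at 139, 147 and 122 CPM in untreated replicates 1 to 3 and at 144, 140 and 125 CPM after 2 h of auxin. The groups overlapped, with a log2 fold change of 0.00 ± 0.08 (SE, n = 3 per group), so its RNA gives no check of the labels. TPR mRNA (-0.07 ± 0.08) and NUP50 mRNA (0.03 ± 0.05) overlapped between the groups as well.

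The count of called genes after 2 h depended on the pairing. In the unpaired fit 4 of 17812 genes (0.0225%) were called, against 45 by DESeq2. A call asks for an adjusted p under 0.05 and, for the auxin level over the untreated one, 1.3 or more or else 0.7 or less, after the study's threshold of 30%. Genes called by the same rule in untagged DLD-1 cells were taken out, a step added here. MB21D2, LINC00511 and ANKRD13C rose and EGR1 fell. At an unadjusted p under 0.05 there were 667 genes in the unpaired and 2146 in the paired fit. Without auxin replicate 1 or without untreated replicate 1, 1 gene was called, and without any other single library, 3. In the paired fit 105 genes (0.589%) passed, 81 of them higher (0.455%) and 24 lower (0.135%). Before the DLD-1 calls were taken out the paired fit held 134 genes (0.752%), 109 higher (0.612%) and 25 lower (0.14%). MB21D2 and EGR1 are among the 29 taken out of the paired list, because both were called in the paired fit of DLD-1. Whether replicate numbers pair the DLD-1 libraries was not checked, and 48 genes were called there with the pairing against 10 without it. The labels and the study's supplement name the DLD-1 treatments in opposite ways, which was not settled here, and the thresholds differ between rises and falls. With the treatments turned, the paired list held 86 genes, 61 higher and 25 lower: 20 of the 105 left it, among them NANOS1, ADGRF1, LHX4, CDX2, FOSL2, CDKN1B and EREG, and EGR1 came back. Of the 105 genes, 77 were protein coding and 12 were long noncoding RNAs, and in 79 the 3 untreated and 3 auxin libraries did not overlap, against a background over all tested genes of 4.73% not overlapping and higher and 3.55% not overlapping and lower. Without the replicate 3 pair, the paired fit called 174 genes, 75 higher and 99 lower, of which 83 are among the 105, and all 105 kept their direction. Unless stated, "rose" and "fell" below refer to a gene past both thresholds in the paired fit. Log2 fold changes come with their SE (n = 3 per group). Adjusted p are Benjamini-Hochberg values over all tested genes from the quasi-likelihood test of edgeR. Paired SE and p rest on changes within pairs, moderated across genes, and can understate how far single pairs differ. They take same-numbered libraries as pairs, which was not settled for the replicates other than replicate 3. Without 1 replicate pair, the paired log2 fold change ran from 4.18 to 5.39 for CYP1A1 and from 1.47 to 2.53 for MT-RNR2.

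**Figure D1:**
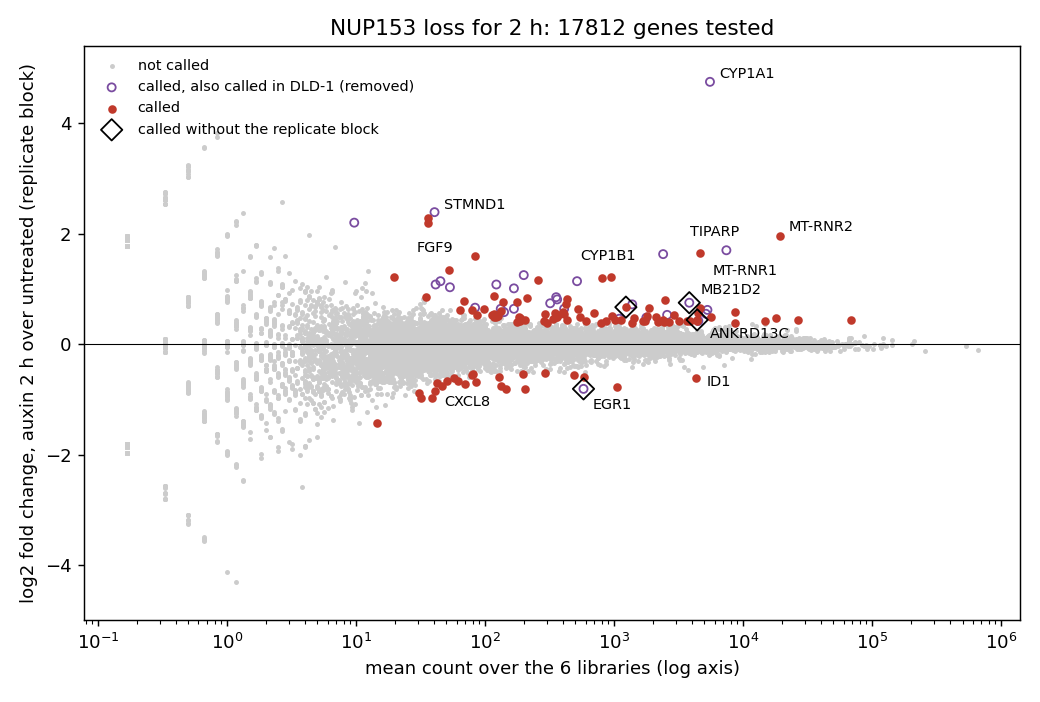
Log2 fold change after 2 h of auxin over untreated (paired fit) against the mean count over the 6 libraries (log axis), 1 point per gene; red points are the 105 called genes, open purple circles are the 29 that were also called in DLD-1 cells, and black diamonds are the 4 genes called without pairing. Of the called genes 109 lie above 0 and 25 below, with CYP1A1 at 4.75 the highest.

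Promoters of the genes with the clearest changes are shown first, because several genes with large folds, CYP1A1 first, are known targets of the aryl hydrocarbon receptor (AHR), a ligand-activated transcription factor that binds, with its partner ARNT, to a core of GCGTG. Each line holds 240 bases ending 10 bases before the RefSeq start site (GRCh38.p14, 5′ to 3′ on the gene's strand). Capitals mark the letters GCGTG on either strand (CACGC being its reverse complement). CYP1A1 lies at chr15:74725539-74725778 (minus strand) with 1 match, TIPARP at chr3:156674340-156674579 (plus strand, the first of 3 RefSeq starts, the others holding none) with 2, and MB21D2 at chr3:192917867-192918106 (minus strand) with 3.
CYP1A1: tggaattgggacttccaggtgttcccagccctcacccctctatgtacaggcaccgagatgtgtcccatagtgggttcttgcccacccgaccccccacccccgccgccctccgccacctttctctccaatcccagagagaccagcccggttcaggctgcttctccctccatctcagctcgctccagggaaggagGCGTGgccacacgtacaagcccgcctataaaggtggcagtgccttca
TIPARP: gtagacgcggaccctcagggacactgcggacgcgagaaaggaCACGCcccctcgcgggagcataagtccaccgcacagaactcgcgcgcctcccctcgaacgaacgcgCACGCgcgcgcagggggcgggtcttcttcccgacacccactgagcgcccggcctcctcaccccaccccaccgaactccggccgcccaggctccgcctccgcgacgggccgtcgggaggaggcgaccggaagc
MB21D2: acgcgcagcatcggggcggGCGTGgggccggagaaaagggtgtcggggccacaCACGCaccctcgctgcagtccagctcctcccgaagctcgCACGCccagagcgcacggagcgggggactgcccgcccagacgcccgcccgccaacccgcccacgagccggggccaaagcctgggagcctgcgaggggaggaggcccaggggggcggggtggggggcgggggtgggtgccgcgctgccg
Of 35116 RefSeq promoters cut the same way, 10965 (31.2%) held GCGTG on either strand and 1030 (2.93%) held it at least 3 times. The windows of AHRR held 1 and 2 matches, that of LINC00511 held 1 and that of ANKRD13C none. A match is a description of the letters in a window, not a site.

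CYP1A1 had the largest fold of all called genes, and 4 other genes of the aryl hydrocarbon receptor list rose. Of the 8 genes listed, 5 rose (CYP1A1, CYP1B1, TIPARP, AHRR and CYP1A2), against 0.612% of all tested genes, none fell, and the list's median log2 fold change was 1.13 in the unpaired fit against 0.00 over all tested genes. The list and its members were chosen with earlier results of these data known. CYP1A1, a cytochrome P450 enzyme that oxidises polycyclic aromatic compounds, was at 10.4, 19.0 and 2.63 CPM in untreated libraries and at 251, 277 and 275 CPM after auxin. The groups lay far apart, and the untreated libraries differed from each other by several fold, with replicate 3 the lowest. The log2 fold change was 4.75 ± 0.20 (edgeR adjusted p = 1.13e-17) in the paired and 4.64 ± 0.48 (adjusted p = 0.0138) in the unpaired fit, where it was not called without auxin replicate 2 (adjusted p = 0.0535) or untreated replicate 1 (adjusted p = 0.162). TIPARP, a repressor of AHR from the poly(ADP-ribose) polymerase family, was at 86.1, 87.3 and 89.1 CPM untreated and at 290, 252 and 314 CPM after auxin. Every auxin library was above every untreated one, with a log2 fold change of 1.70 ± 0.05 (edgeR adjusted p = 3.29e-21). CYP1B1, a related P450 enzyme, was at 28.6, 31.8 and 27.8 CPM against 86.7, 81.7 and 106 CPM. These groups did not overlap either, and the log2 fold change was 1.63 ± 0.07 (edgeR adjusted p = 1.1e-17). AHRR, the repressor of AHR, rose from 8.74 to 11.6 CPM untreated to 14.1 to 17.7 CPM (log2 0.63 ± 0.09). CYP1A2, a further P450 enzyme, remained under 1 CPM in every library (0.0253 to 0.148 CPM untreated, 0.257 to 0.514 CPM after auxin). AHR, ARNT and NQO1 were not called, at log2 fold changes of 0.05, -0.01 and -0.06.

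In the untagged DLD-1 line the same genes differed between the libraries labelled auxin and those labelled with no agent, but in the other direction: CYP1A1 by -3.84 ± 0.06, TIPARP by -1.77 ± 0.05 and CYP1B1 by -1.14 ± 0.04 on the log2 scale in the paired fit. With the treatments named as in the supplement these values would have the opposite sign. Of these genes, 4 of the 5 genes (CYP1A1, CYP1B1, TIPARP and CYP1A2) were taken out because of their DLD-1 calls, and AHRR stayed in. Neighbours of these genes, named after their values were seen, also rose and were also taken out. EDC3, a decapping factor at chr15:74630558-74696292 beside CYP1A1, was at 22.9 to 29.0 CPM untreated and 40.3 to 45.1 CPM after auxin (log2 0.72 ± 0.07). CYP1B1-AS1, which overlaps CYP1B1 on the other strand and whose reads may not be separable from it, was at 2.25 to 3.38 CPM and then 5.62 to 5.68 CPM (log2 1.01 ± 0.11).

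**Figure D2:**
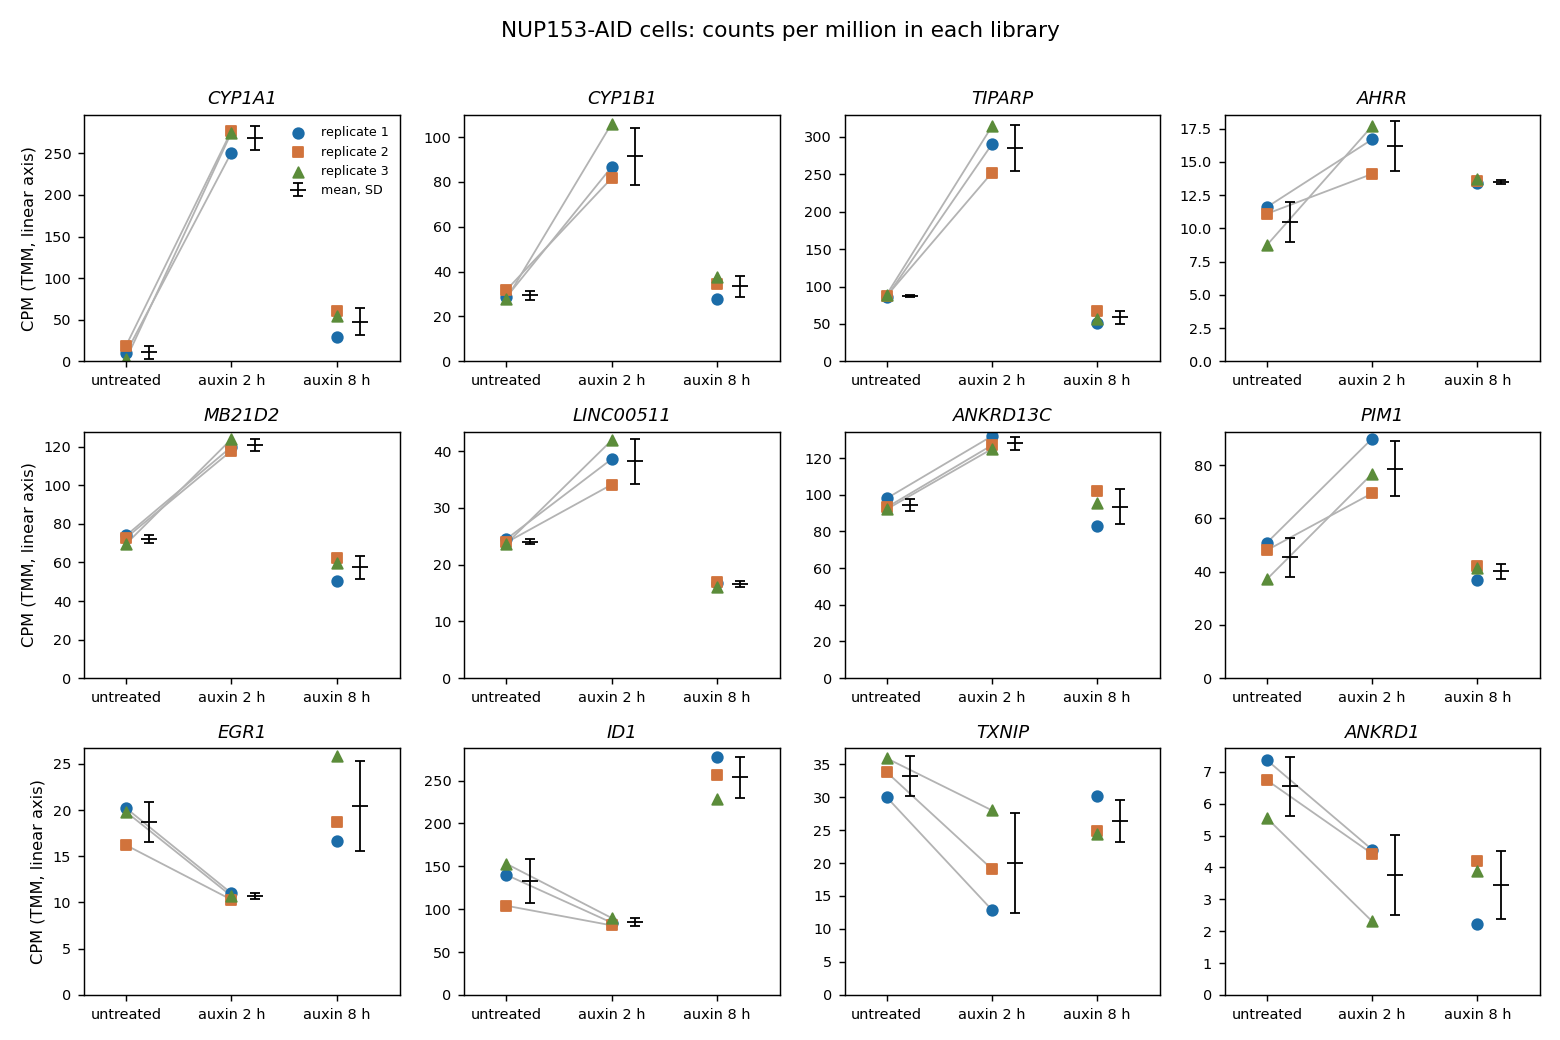
CPM (linear axis) in each untreated, auxin 2 h and auxin 8 h library of 12 genes, 1 panel per gene, symbols giving the replicate number and the black bar the mean with its SD. CYP1A1 and TIPARP are high in all 3 libraries at 2 h, and EGR1 lies at 10.3 to 11.0 CPM there against 16.2 to 20.2 CPM untreated.

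MB21D2, outside the AHR list, rose in both fits. The gene (chr3:192796815-192917856, minus strand) encodes a protein with a Mab-21 domain. It was at 74.0, 72.8 and 69.6 CPM untreated and 120, 118 and 124 CPM after auxin. Both groups were tight and did not overlap. Its log2 fold change was 0.75 ± 0.05 (edgeR adjusted p = 0.000815 unpaired and 2.79e-12 paired), and it was called in 6 of 6 fits that left out 1 library. In DLD-1 it was lower in the libraries labelled auxin, by -0.61 ± 0.05 (edgeR adjusted p = 2.57e-07, paired), which took it out of the paired list.

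LINC00511, a long intergenic noncoding RNA (chr17:72290091-72640472, minus strand), was at 24.5, 23.9 and 23.7 CPM untreated and at 38.6, 34.1 and 41.9 CPM after auxin. No library of one group reached the other. Its log2 fold change was 0.67 ± 0.08 unpaired (edgeR adjusted p = 0.041), but of 6 fits that each left out a library it was called only in the one without auxin replicate 2 (adjusted p = 0.0216), the others giving an edgeR adjusted p of 0.0513 to 0.32. ANKRD13C, an ankyrin repeat protein of the endoplasmic reticulum (chr1:70258999-70354734, minus strand), was at 98.0, 93.1 and 92.1 CPM and then at 132, 127 and 125 CPM. The log2 fold change was 0.44 ± 0.06 (edgeR adjusted p = 0.041 unpaired, 8.61e-08 paired), and the gene was called in 0 of 6 unpaired fits that left out a library (adjusted p = 0.0513 to 0.357). HHLA3, which starts just beyond ANKRD13C on the opposite strand (chr1:70354786-70385339), rose too, from 1.18 to 1.38 CPM to 1.98 to 2.39 CPM (log2 0.78 ± 0.16). In the paired fit of DLD-1 as labelled, LINC00511 was at -0.32 ± 0.05 (edgeR adjusted p = 0.0012). ANKRD13C was there at -0.21 ± 0.04 (edgeR adjusted p = 0.00359) and HHLA3 at -0.40 ± 0.12 (edgeR adjusted p = 0.152). None reached the fold threshold for a DLD-1 call.

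EGR1 was the one gene lower in the unpaired list. It encodes a zinc finger transcription factor and is an immediate early gene that serum response factor switches on through CArG boxes. Its window (chr5:138465229-138465468, plus strand, built as above) holds 2 CArG boxes, in capitals.
EGR1: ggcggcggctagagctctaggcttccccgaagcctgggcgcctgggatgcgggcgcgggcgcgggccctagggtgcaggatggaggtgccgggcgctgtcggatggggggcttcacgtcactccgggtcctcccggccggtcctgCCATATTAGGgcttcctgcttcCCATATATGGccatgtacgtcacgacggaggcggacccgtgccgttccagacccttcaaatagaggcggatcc
A CArG box was in 396 of the 35116 promoters (1.13%), and at least 2 were in 10 (0.0285%). EGR1 (chr5:138465479-138469303) was at 20.2, 16.2 and 19.8 CPM untreated and 11.0, 10.3 and 10.7 CPM after auxin. The groups did not overlap, and the log2 fold change was -0.81 ± 0.10 (edgeR adjusted p = 0.041 unpaired and 2.66e-09 paired). Of 6 unpaired fits that each left out a library, it was called in the one without untreated replicate 2 (edgeR adjusted p = 0.0246), the others giving 0.0729 to 0.32. In DLD-1 it was 0.42 ± 0.08 higher in the libraries labelled auxin in the paired fit (edgeR adjusted p = 0.00846). In the unpaired fit of DLD-1 it was at 0.29 ± 0.54 and was not called.

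The other immediate early genes were not called. Of 14 listed, 1 fell (EGR1), against 0.14% of all tested genes, and none rose, and their median log2 fold change was -0.16. FOS was at 8.65, 4.99 and 6.28 CPM untreated and 4.96, 4.21 and 5.49 CPM after auxin, overlapping, and its paired log2 fold change of -0.43 ± 0.11 (edgeR adjusted p = 0.0184) did not reach the fold threshold. In the paired fit of DLD-1 as labelled, FOS was at 0.56 ± 0.09 (edgeR adjusted p = 0.00161) and was called. In the ERK and EGF receptor list, 1 of 17 tested genes rose, against 0.612% of all tested genes: EREG, an EGF receptor ligand, at 1359, 1376 and 1671 CPM and then 1929, 1967 and 2025 CPM (log2 0.43 ± 0.05), without overlap. In the paired fit of DLD-1 as labelled, EREG was at -0.41 ± 0.03 (edgeR adjusted p = 1.21e-07), short of the fold threshold.

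**Figure D3:**
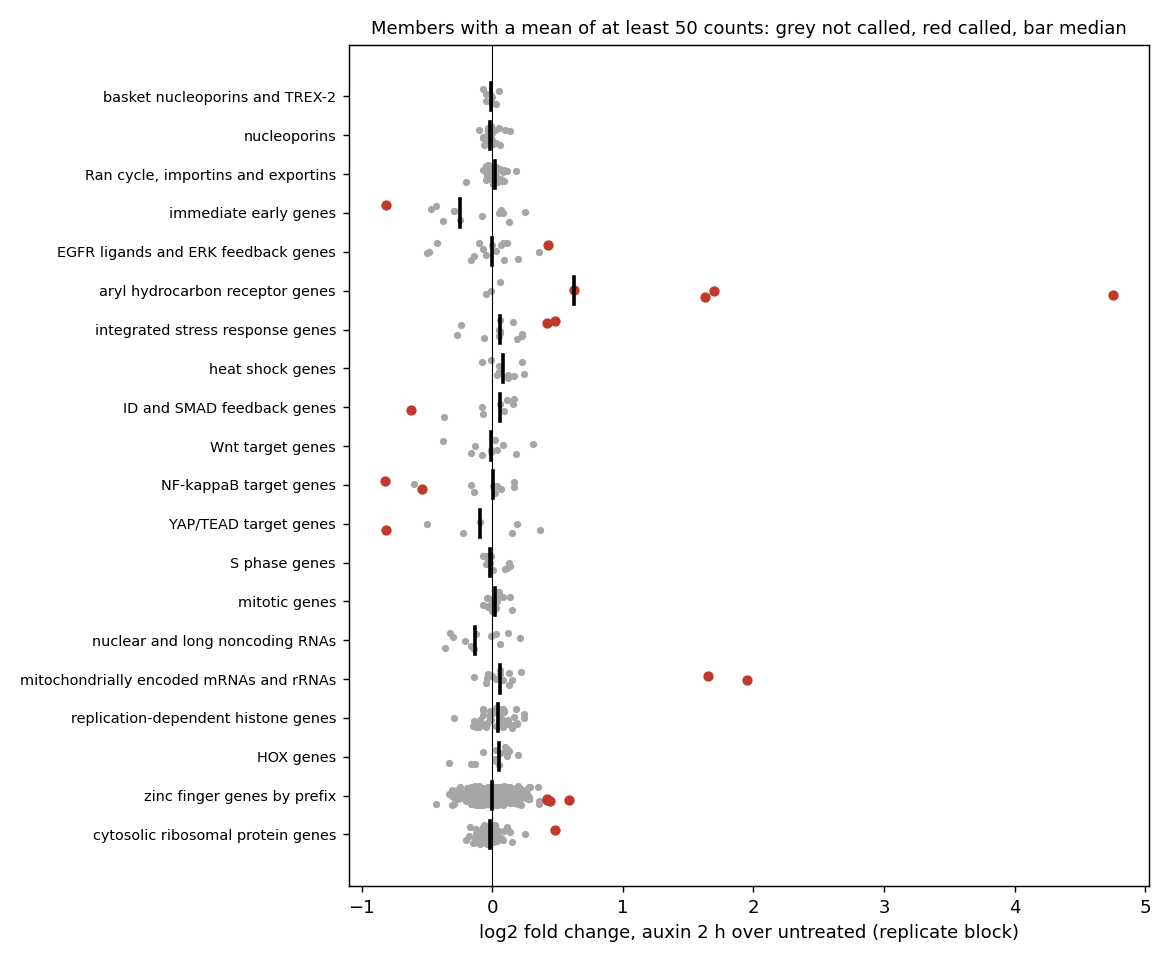
Log2 fold change after 2 h (paired fit) for the members with a mean of at least 50 counts of each gene list, 1 point per gene, red where called and grey where not, with the median as a bar. CYP1A2 is below that count and is not drawn; AHRR at 0.63 is the median of the other aryl hydrocarbon receptor genes, and the called mitochondrial genes, at 1.65 and 1.95, are both rRNAs.

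Outside the lists, FGF9, NANOS1, ADGRF1 and PIM1 were among the 10 largest paired rises that averaged 50 counts or more and were not called in DLD-1. Several were lower in the paired fit of DLD-1 as labelled, yet missed a threshold there. By edgeR, NANOS1 was at -0.40 (adjusted p = 7.67e-06), ADGRF1 at -0.50 (1.91e-07), LHX4 at -0.50 (1.77e-06) and FGF9 at -1.09 (0.06). PSAPL1 was at -0.28 (0.837) and PIM1 at 0.02 (0.963). FGF9, a fibroblast growth factor, was low: 0.633 to 1.63 CPM untreated and 2.85 to 3.30 CPM after auxin (log2 1.60 ± 0.18). NANOS1, an RNA-binding repressor of translation, was at 16.1, 18.3 and 9.70 CPM and then 32.5, 35.7 and 31.9 CPM (log2 1.21 ± 0.09). ADGRF1, an adhesion G protein-coupled receptor, was at 8.08 to 17.0 CPM and then 25.2 to 31.3 CPM (log2 1.20 ± 0.08). None of these overlapped between groups. PIM1, a serine/threonine kinase, was at 50.8, 48.0 and 37.1 CPM and then 89.9, 69.4 and 76.7 CPM (log2 0.80 ± 0.06, edgeR adjusted p = 1.61e-10). PSAPL1, a prosaposin-like protein, had a log2 fold change of 0.87 ± 0.14 and LHX4, a LIM homeodomain factor, of 0.81 ± 0.08. The RN7SL pseudogene RN7SL674P (0.84 ± 0.17) was highest in auxin replicate 2 at 12.7 CPM, the other 5 libraries lying between 3.62 and 4.49 CPM, and without 1 replicate pair its log2 fold change ran from 0.19 to 1.14. Its reads may come from other 7SL copies.

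CDX2, the homeobox factor that defines intestinal epithelium, was at 180, 178 and 160 CPM untreated and 258, 236 and 287 CPM after auxin, with no overlap (log2 0.59 ± 0.06, edgeR adjusted p = 8.93e-09), and is the one epithelial marker of 10 tested that was called (0.752% of all tested genes were). In the paired fit of DLD-1 as labelled, CDX2 was at -0.43 ± 0.04 (edgeR adjusted p = 2.28e-07), short of the fold threshold. Other factors named after their values were seen were FOSL2 (0.66 ± 0.05), BCL6 (0.72 ± 0.08) and NFE2L2 (0.56 ± 0.05), the last a regulator of oxidative stress genes. NFE2L2 itself was at 82.4 to 95.9 CPM untreated and 113 to 153 CPM after auxin. The cell cycle inhibitor CDKN1B, also named after its values were seen, rose by 0.50 ± 0.05, from 109 to 128 CPM to 157 to 180 CPM. Among zinc finger genes taken by name prefix, 4 of 463 tested genes rose, close to the 0.612% of all tested genes, KLF9 (0.42 ± 0.05), ZBTB26 (0.59 ± 0.08), ZBTB7C (0.44 ± 0.08) and ZNF860 (0.42 ± 0.10), and none fell. ZNF860 was called in 1 of 3 paired fits that left out a replicate pair (log2 0.26 to 0.58), and the other 3 genes in 3 of 3. In the paired fit of DLD-1 as labelled, KLF9 was at -0.37 ± 0.06 (edgeR adjusted p = 0.000767), short of the fold threshold. By edgeR, ZBTB26 was there at 0.11 (adjusted p = 0.82), ZBTB7C at -0.25 (0.105) and ZNF860 at -0.22 (0.566).

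Of the genes that fell, ID1 had the highest counts. ID1, an inhibitor of basic helix-loop-helix factors that BMP signalling induces, was at 140, 104 and 153 CPM untreated and 84.3, 81.1 and 89.7 CPM after auxin. The groups did not overlap (log2 -0.62 ± 0.06, edgeR adjusted p = 5.57e-09). It is the one member of 9 tested in the ID and SMAD feedback list that was called, and 0.14% of all tested genes were called lower, the share to set beside the counts of the next lists too. TXNIP, an inhibitor of thioredoxin, was at 30.0, 33.8 and 35.9 CPM and then 12.9, 19.1 and 28.0 CPM (log2 -0.77 ± 0.09). ANKRD1, a YAP target, fell from 5.55 to 7.37 CPM to 2.31 to 4.56 CPM (-0.81 ± 0.11), 1 of 8 in the YAP/TEAD list. In the paired fit of DLD-1 as labelled, ANKRD1 was at 0.30 ± 0.04 (edgeR adjusted p = 0.000653), short of the fold threshold. There ID1 was at 0.18 ± 0.06 (edgeR adjusted p = 0.297) and TXNIP at -0.06 ± 0.07 (edgeR adjusted p = 0.922). CXCL8 and CXCL3, chemokines of the NF-kappaB list (2 of 12 tested called), fell by 0.82 and 0.54 on the log2 scale, but CXCL3 was called in 0 of 3 paired fits that left out a replicate pair. CXCL8 was at 3.03, 1.77 and 9.22 CPM untreated and 1.17, 1.07 and 5.98 CPM after auxin, the third replicate being high in both groups, so the groups overlapped and the call rests on the pairing: its log2 fold change is 0.18 in the unpaired fit without untreated replicate 3. MIR23AHG (-0.76), SNORD100 (-0.72), SAMD11 (-0.68), C14orf132 (-0.67), ENKD1 (-0.66) and DLEC1 (-0.62) were the next largest falls of called genes that averaged 50 counts or more and went the same way in all 3 pairs, all under 6 CPM. Of these, MIR23AHG, SNORD100, SAMD11 and DLEC1 overlapped between the groups, and C14orf132, ENKD1 and DLEC1 were each called in 1 of 3 paired fits that left out a replicate pair.

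The other lists held few or no called genes, and of all tested genes 0.752% were called, so that 0 calls in lists of 9 to 54 genes is near that share. Where none was called, the highest and the lowest member with a mean of at least 50 counts are given. Of 32 nucleoporins 0 were called, with POM121 the highest (0.13) and NUP85 the lowest (-0.10), and of 9 basket and TREX-2 genes 0, with MCM3AP at 0.05 and TPR at -0.07. In the list of the Ran cycle, importins and exportins 0 of 34 were called, with KPNA4 at 0.19 and IPO4 at -0.21. The integrated stress response list had 2 of 14 higher, against 0.612% of all tested genes, PPP1R15A (0.42 ± 0.05) and DDIT4 (0.48 ± 0.06). Both were also called in the paired fit of DLD-1, but lower in the libraries labelled auxin (-0.57 ± 0.04 and -0.68 ± 0.05). GDF15 in that list was at -0.27 ± 0.04 paired (edgeR adjusted p = 0.000177), short of the fold threshold, and overlapped widely. Heat shock genes (0 of 12), Wnt targets (0 of 12), S phase genes (0 of 13) and mitotic genes (0 of 20) gave no call, with BAG3 at 0.25 and DNAJB1 at -0.09, LGR5 at 0.31 and SP5 at -0.38, RRM2 at 0.14 and GINS2 at -0.07, and PLK1 at 0.15 and CDK1 at -0.07. Histone genes (0 of 54), HOX genes (0 of 26) and nuclear and long noncoding RNAs (0 of 12) gave none either, with H3C11 at 0.24 and H4C16 at -0.29, HOXB9 at 0.21 and HOXB5 at -0.35, and TUG1 at 0.21 and SNHG15 at -0.36. Among ribosomal protein genes 1 of 80 rose, against the same 0.612%, RPS16 (0.48 ± 0.06, 351 to 391 CPM untreated and 415 to 650 CPM after auxin). RPS16 was called in 2 of 3 paired fits that left out a replicate pair. In the unpaired fit 50 of the 80 were below 0. Without overlap, 13 of the 80 were lower (3.55% of all tested genes were) and 5 higher (4.73% were). FJX1 (0.07), ASCL2 (-0.16) and HOXA13 (0.10) overlapped between the groups.

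Both mitochondrial ribosomal RNAs rose. MT-RNR2, the large mitochondrial rRNA, was at 209, 106 and 309 CPM untreated and 938, 793 and 529 CPM after auxin. Its groups did not overlap (log2 1.95 ± 0.18, edgeR adjusted p = 3.67e-09). MT-RNR1, the small one, was at 63.4, 27.2 and 84.5 CPM and then 235, 167 and 122 CPM (1.65 ± 0.17). Unpaired, their adjusted p were 0.159 and 0.372. They were 2 of 15 tested mitochondrial genes, against 0.612% of all tested genes called higher. None of the 13 mitochondrial mRNAs was called, all lying between -0.16 and 0.22. Of all tested genes 0.752% were called, so that no call among 13 genes is near that share. The rRNA share of all counts was 0.117, 0.0953 and 0.0635% in auxin against 0.0274, 0.0134 and 0.0380% in untreated replicates 1 to 3. The libraries had been depleted of rRNA with Ribo-Zero Gold, which also targets mitochondrial rRNA, so these counts are what the depletion left, and more rRNA and less depletion cannot be told apart here. With mitochondrial genes left out before normalization, the paired fit called 106 genes.

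**Figure D4:**
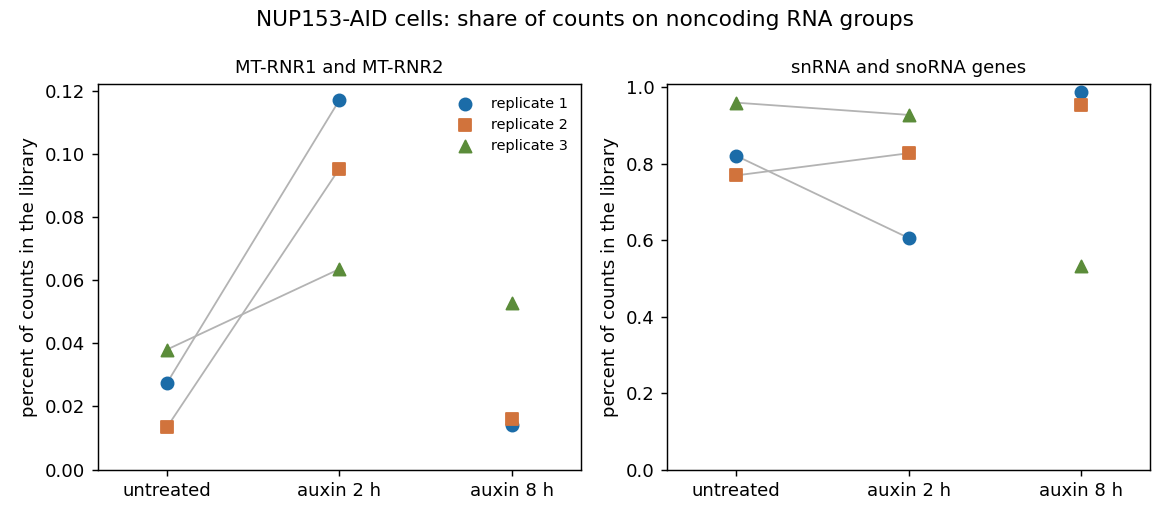
Percent of the counts of each library on mitochondrial rRNA (left) and on snRNA and snoRNA genes (right), for untreated, auxin 2 h and auxin 8 h libraries, symbols giving the replicate and grey lines joining replicates of the same number. All 3 auxin 2 h libraries are above the untreated ones in mitochondrial rRNA (0.0635 to 0.117% against 0.0134 to 0.0380%).

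After 8 h of auxin, compared with the same 3 untreated libraries, several genes stood elsewhere, and both the unpaired and the paired p are given. CYP1A1 was at 29.0, 60.3 and 54.2 CPM, above all untreated libraries, but passed in neither fit (log2 2.16, edgeR adjusted p = 0.0621 unpaired and 0.0808 paired). TIPARP was at 51.2, 67.5 and 57.2 CPM, below all 3 untreated libraries (log2 -0.58, edgeR adjusted p = 0.017 unpaired and 0.0466 paired). LINC00511 was at 16.8, 16.9 and 16.1 CPM, below untreated (-0.53, edgeR adjusted p = 0.012 unpaired), a call lost in the paired fit (adjusted p = 0.0688). ID1 was at 277, 257 and 229 CPM, above untreated (0.94, edgeR adjusted p = 0.00968 unpaired and 0.0339 paired). Both times share their untreated libraries, so their values are given side by side and not compared.

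Loss of other proteins was measured in its own lines, each with its own 3 untreated libraries: NUP50-NeonGreen-AID (3 h), AID-NeonGreen-TPR (2 h) and GAP1-NeonGreen-AID (RANGAP1, which turns over RanGTP, 2 h). The files differ in which genes hold counts. Of the 1015 tested genes with no count in the 6 NUP153-AID libraries, 63 had a count in the NUP50 line, but 1009 did in the TPR, 972 in the RANGAP1 and 1013 in the DLD-1 libraries. The TPR and DLD-1 libraries also hold no mitochondrial counts, whereas the RANGAP1 libraries hold 56663 to 87740 each. MB21D2 had log2 fold changes of 0.75 ± 0.09 after NUP50 loss, -0.09 ± 0.08 after TPR loss and 1.04 ± 0.08 after RANGAP1 loss. CYP1A1 had 5.71 ± 0.48, 1.88 ± 0.35 and 5.86 ± 0.16, and EGR1 had -0.17 ± 0.14, 0.76 ± 0.29 and -0.03 ± 0.28. A second set of AID-NeonGreen-TPR libraries at 2 h, labelled old, with a count in 68 of those 1015 genes, stood apart from the first: there MB21D2 had 0.29 ± 0.15, CYP1B1 1.98 ± 0.38, CYP1A1 6.68 ± 0.76 and EGR1 2.49 ± 0.39. Of the 109 genes higher in the paired fit before DLD-1 calls were taken out, 92 were above 0 after NUP50 loss (84.4%, against 49.7% of all tested genes), 71 of 107 after TPR loss (66.4% against 52.4%; in the libraries labelled old 77 of 109, 70.6% against 51.2%) and 96 of 109 after RANGAP1 loss (88.1% against 50.8%). Of the 25 lower ones, 14, 14 and 15 were below 0 after NUP50, TPR and RANGAP1 loss. The shares above 0 were 44, 44 and 40%, against 49.7, 52.4 and 50.8% of all tested genes. In DLD-1, 94 of 107 of the higher genes were below 0 in the libraries labelled auxin (12.1% above 0, against 50.2%). Of the 25 lower genes, 23 were above 0 there (92%, against 50.2%). With the DLD-1 treatments turned, the same 94 genes would be above 0, and the 23 below 0, with auxin in cells that have no degron.

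The change differed from that after 3 h of NUP50 loss in 8 genes (0.0449%) by an interaction test, and in 84 with the replicate number within each line as a block. All 8, named here because they are few, BAG5, ZBTB26, SPIN4, PABIR1, ZFP62, KLHL9, PLPP6 and ATXN7L3B, were above 0 after NUP153 loss and below 0 after NUP50 loss. KLHL9, a cullin adaptor named after its values were seen, had 0.22 ± 0.06 against -0.54 ± 0.08 (difference 0.77, edgeR adjusted p = 0.00391). ZBTB26 had 0.59 ± 0.10 against -0.66 ± 0.15 (difference 1.26, edgeR adjusted p = 0.0135). These 8 genes have 1 to 4 exons (median 1), taking for each gene the transcript with the most exons, against a median of 8 over the tested genes. The count was 3 without NUP153-AID untreated replicate 1 or NUP50-AID untreated replicate 2, 4 without NUP153-AID untreated replicate 2, and 5 without NUP153-AID auxin replicate 2, NUP50-AID auxin replicate 2 or 3, or NUP50-AID untreated replicate 3. EGR1 (difference -0.64 ± 0.18) and TIPARP (0.48 ± 0.16) did not pass the interaction test (edgeR adjusted p = 0.865 and 0.937), and with the block TIPARP passed (0.0389) and EGR1 did not (0.0639).

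Against 2 h of TPR loss 115 genes differed (0.646%; 816 with the block), 114 of them more positive after NUP153 loss, and 112 of those were below 0 after TPR loss. The median exon number of the 114 was 2. MB21D2 (difference 0.84 ± 0.09, edgeR adjusted p = 0.000704), CYP1B1 (0.97 ± 0.15, edgeR adjusted p = 0.0104) and ZBTB26 (1.31 ± 0.19, edgeR adjusted p = 0.00531) were among them. Against the TPR libraries labelled old, 93 genes differed, 80 more positive and 13 more negative. There ZBTB26 (1.60 ± 0.21, edgeR adjusted p = 0.0055) and EGR1 (-3.31 ± 0.47, edgeR adjusted p = 0.00564) passed, MB21D2 (0.45 ± 0.15, edgeR adjusted p = 0.341) did not, and CYP1B1 turned in direction and did not pass (-0.35 ± 0.45, edgeR adjusted p = 0.862). Every library but AID-TPR auxin replicate 3 (105 genes without it) and NUP153-AID untreated replicate 3 (84) lowered the count by over 1.5 times when left out of the first comparison, to 43 without NUP153-AID untreated replicate 2 and 45 without NUP153-AID auxin replicate 1. Against 2 h of RANGAP1 loss 15 genes differed (0.0842%; 301 with the block), 13 of them more negative after NUP153 loss. By edgeR the count was 0 without NUP153-AID auxin replicate 1 or 2, NUP153-AID untreated replicate 1, RANGAP1-AID auxin replicate 2 or RANGAP1-AID untreated replicate 2, against 49 genes by DESeq2 with all libraries. It was 14 without RANGAP1-AID auxin replicate 1, 10 without NUP153-AID untreated replicate 2 and 3 to 9 without any other single library. Named after their values were seen, JUN and LIF were among the 13. JUN, a subunit of the AP-1 factor, had -0.29 after NUP153 loss and 1.44 after RANGAP1 loss (difference -1.74, edgeR adjusted p = 0.0303). LIF, a cytokine, had 0.05 and 1.37 (difference -1.33, edgeR adjusted p = 0.0245). TIPARP had 1.71 ± 0.08 and 2.39 ± 0.08 (difference -0.68 ± 0.11, edgeR adjusted p = 0.0303), rising in both lines, and PIM1 (-0.87 ± 0.17) did not pass (edgeR adjusted p = 0.158), but did with the block (edgeR adjusted p = 1.45e-06).

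**Figure D5:**
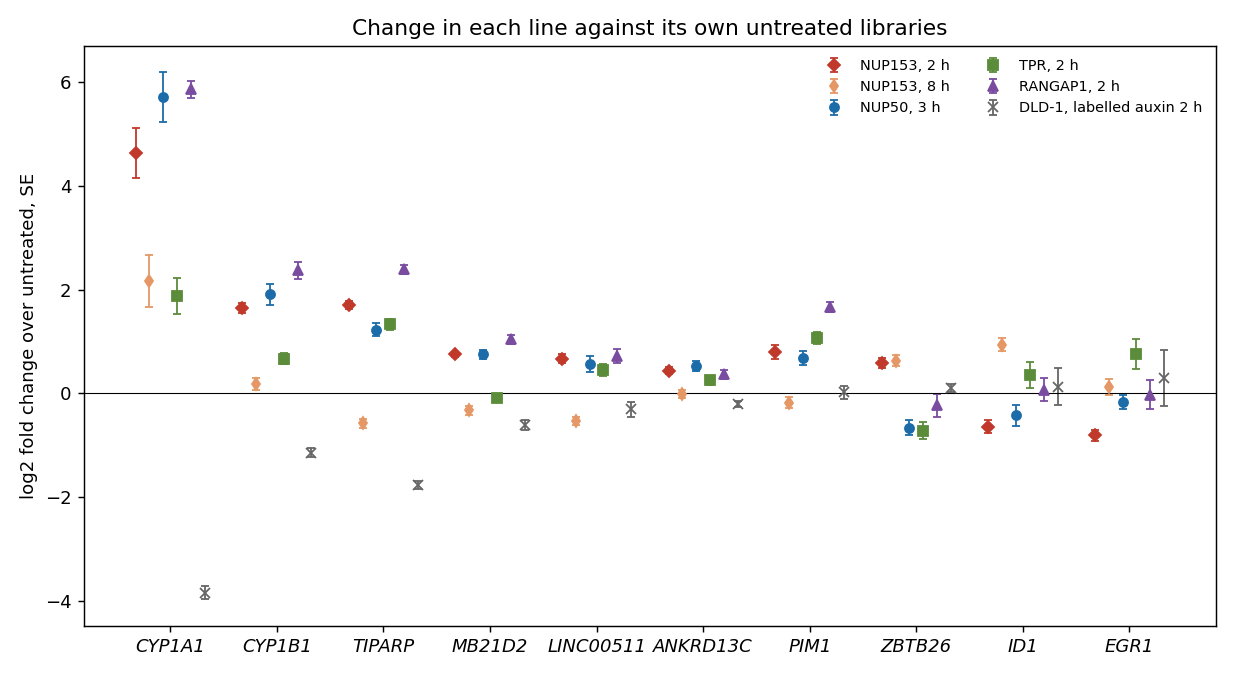
Log2 fold change over the untreated libraries of the same line, with SE, of 10 genes after NUP153 loss for 2 h and 8 h, after NUP50, TPR and RANGAP1 loss, and in DLD-1 libraries labelled auxin. CYP1A1 is above 0 in every AID line shown and below 0 in DLD-1 as labelled, and MB21D2 is near 0 (-0.09) after TPR loss in the libraries without the label old.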

How the data were processed

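RNA was measured in 6 libraries of NUP153-NeonGreen-AID DLD-1 cells, 3 untreated and 3 with auxin for 2 h, and in the libraries of the other lines they were compared with. The authors deposited raw counts per gene (unnormalized, GRCh38), made from total RNA without rRNA (Ribo-Zero Gold, TruSeq). The submitters' processing notes name CASAVA 1.8.2, STAR 2.6.1c and featureCounts 1.5.2. Counting differed between lines, and 1015 of the tested genes have no count in the 6 libraries.

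Genes were kept where CPM exceeded 1 in more than 5% of the 60 libraries that had no ActD (actinomycin D). Counts were scaled by TMM and tested with edgeR 4.0.16 (quasi-likelihood, R 4.3.3) with Benjamini-Hochberg adjustment over 17812 genes, which held at least 99.83% of counts. Interactions were tested over 12 libraries. DESeq2 1.42.0 was an alternative, with other normalizations, filters, fits and left-out libraries. Scripts were tested on simulated data. CPM values use TMM-scaled library sizes.

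Libraries carry only replicate numbers in the labels, and the study states independent biological replicates. With 3 per group, unpaired p-values and SE rest on the spread between these libraries, moderated across genes. Those of the paired fit rest on the spread of changes within pairs, moderated in the same way. Residuals of same-numbered libraries correlated at 0.53, 0.534 and 0.706 (12775 genes, bound 0.1). Libraries with different numbers were not compared in this way. Replicate 3 stood apart in both groups, which by itself makes residuals of the other replicates correlate. The check therefore cannot decide whether the numbers pair those other replicates. Within each group, replicates differed beyond sampling noise (chi-square per degree of freedom 6.79 to 22.1), so none was the same library sequenced again. The check cannot tell separate libraries made from the same RNA from biological replicates, and it was not run across the groups.

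Named genes were NUP153, TPR and NUP50; the genes called without pairing; the 10 largest paired calls in each direction averaging 50 counts or more, in the same direction in all 3 pairs; called members of the gene lists, or, where none was called, the highest and lowest member averaging 50 counts or more; FOS, EGR1, GDF15, FJX1, ASCL2, HOXA13, CYP1A1, CYP1B1 and TIPARP; and, for each interaction, the 2 of these with the smallest p. Genes outside this rule are marked as named after their values were seen. The members, lists and tests were chosen with earlier results of these data known. Promoters came from RefSeq, and no window is given for the named AHR genes CYP1B1 and CYP1A2. Figures used matplotlib 3.10.9.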

Additional observations from a re-analysis of the deposited data

Results flagged for a closer look

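The groups of 3 libraries were too small to test for a library far from the others. Changes that differed between lines by a test of the difference itself were flagged for named genes. In the TPR libraries without the label old, MB21D2 changed more after 2 h of NUP153 loss than after 2 h of TPR loss, by 0.84 on the log2 scale, and CYP1B1 by 0.97, both past an adjusted p of 0.05 in edgeR's interaction test. Against the other TPR libraries at 2 h, labelled old, neither passed: the difference was 0.45 for MB21D2 (edgeR adjusted p = 0.341) and -0.35 for CYP1B1 (edgeR adjusted p = 0.862), in the opposite direction. TIPARP changed less after NUP153 loss than after 2 h of RANGAP1 loss, by -0.68 (edgeR adjusted p = 0.0303). In that comparison no gene, TIPARP included, passed when certain single libraries were left out, as given above. Of 1015 tested genes with no count in the NUP153-AID libraries, 1009 had one in those first TPR libraries and 972 in the RANGAP1 libraries, so counting differed from NUP153-AID in both, and its part in these differences was not tested.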

How the results depend on the processing

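The 4 genes called without pairing became 1 with library sizes alone, 45 with DESeq2, 93 without a filter, 124 with the replicate block, 10 in a fit of 9 libraries, 13 in a fit of 60 libraries and 7 without removing DLD-1 calls. Leaving out 1 library gave 1 to 3. With the replicate block, the 105 became 4 without it, 53 by DESeq2, and 97 to 174 without 1 replicate number (174 without replicate 3). The 8 genes that differed from NUP50 loss became 32 by DESeq2 and 84 with a block (3 to 8 without 1 library), the 115 of TPR loss 262 and 816 (43 to 105), and the 15 of RANGAP1 loss 49 and 301 (0 to 14). The cause was not tested. The other settings of these counts stayed within 1.5 times. Among single genes and lists, 1394 values kept direction and call, 78 became stronger, 59 weaker, 47 moved and 7 reversed: the log2 fold change ran from -0.13 to 0.01 for TPR (without auxin replicate 3), -0.30 to 0.04 for VWF (without auxin replicate 2) and, each turning without untreated replicate 3, -2.05 to 0.18 for CXCL8, -0.19 to 0.03 for DNAJB1, -0.59 to 0.03 for GDF15, -0.05 to 0.15 for FJX1 and -0.02 to 0.20 for HOXA13. Of the alternatives to the 105, 124 with the DLD-1 calls of the unpaired fit removed and 86 with the DLD-1 treatments turned were added after seeing the data. Having 3 libraries per group limits which small changes can pass.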
